A study of Bos taurus with 6 samples.

Results

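KCNK12 and the other genes whose symbol starts with KCN, the prefix of the potassium channel subunits, were followed in primary bovine myoblasts after resveratrol (RSV) treatment. Symbols were available for 1863 of 20459 mRNAs with reads, through a supplementary sheet of the study as held here, and that sheet lists differentially expressed (DE) mRNAs alone. The members were therefore selected on the RSV against DMSO difference itself, and every RSV against DMSO value of a member below is a description with no test. There were 6 members (KCNK12, KCNK1, KCNE4, KCNE5, KCNAB2 and KCNT2) among the 26332 mRNAs of the deposited table. The RefSeq annotation of the cattle assembly ARS-UCD2.0 holds 95 protein-coding KCN genes, and the 89 that are no member were not analysed here, because none of their identifiers could be paired with a symbol. The paper reports more DE mRNAs than have a symbol here. Some of these 89 genes may therefore be DE as well.

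Potassium channels let potassium leave the cell along its gradient and so set the resting membrane potential. The channel pore is formed by subunits such as the tandem pore domain (KCNK) proteins, which carry background currents, and the sodium-activated KCNT proteins. Ancillary subunits, among them the single-pass membrane peptides of the KCNE family and the cytoplasmic KCNAB proteins, alter the gating and the surface level of voltage-gated channels. In differentiating myoblasts, potassium currents make the membrane potential more negative before fusion, and calcium enters the cell as this happens.

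The cells were primary myoblasts of fetal beef longissimus dorsi muscle, kept in differentiation medium for 4 days. The RSV group of 3 cultures received 20 μM RSV dissolved in DMSO, and the control group of 3 cultures (DMSO group) received the solvent alone. The paper's methods call the collections of a group independent experiments without saying whether they came from different fetuses, and the methods describe moving the medium with the unattached cells to a new dish soon after plating, and no sorting. Each value is a normalized read count, the whole reads of a library divided by its size factor (a scale for sequencing depth), recovered from the deposited group means as set out with the processing.

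The recovered reads summed to between 9104094 and 11024645 per library, without 614 mRNAs whose reads were not recovered. The libraries carry no sample number, so they are called RSV A, B and C (size factors 1.09, 1.08 and 1.05) and DMSO A, B and C (0.964, 0.960 and 0.886), and equal letters are no pairs. Across 19845 mRNAs, RSV C stood apart from the other RSV libraries, with squared Pearson correlations of log10(normalized reads + 1) of 0.969 and 0.963 against 0.978 between RSV A and B. The DMSO libraries had values of 0.977 among themselves. Each of these correlations runs over mRNAs and not over independent replicates.

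The 6 members fell into 3 that were lower and 3 that were higher in the RSV group, and in the 6 of them the RSV libraries did not overlap the DMSO libraries. Such a gap was found in 52.8% of all 14415 mRNAs that reached the minimum for testing, 10 normalized reads on average, as the 6 members did. By limma voom, a linear model on log2 reads weighted by their precision, 33.3% of these mRNAs were called at an adjusted p under 0.05 (16.8% higher and 16.5% lower in RSV). The members were all called as well, 3 in each direction, which follows from their choice. KCNAB2 lost its call when DMSO A or DMSO C was left out, and KCNT2 when DMSO B or DMSO C was left out. The number of called mRNAs over the table itself fell from 4803 to between 2343 and 2586 when any DMSO library was left out. An absolute log2 fold change (log2FC) of at least 1 was reached by 4 members and by 8.24% of all tested mRNAs. Like the calls, the gap between groups and this size are favoured by the choice of members on the same difference.

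**Figure D1:**
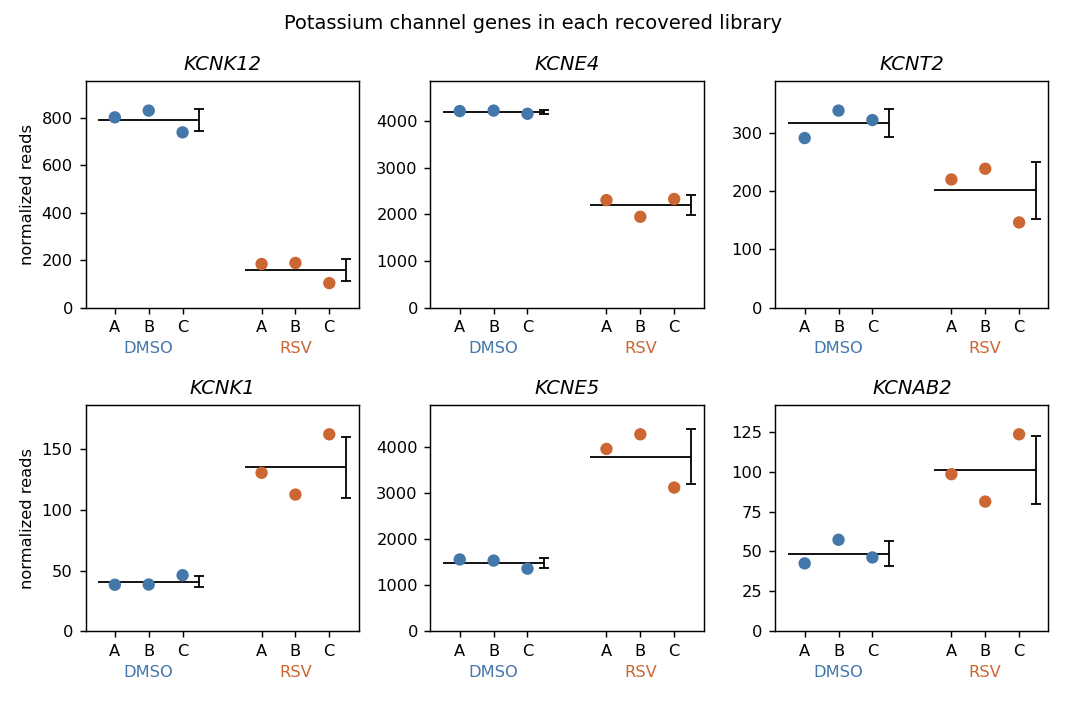
Normalized reads (vertical axes, starting at 0) of the 6 KCN genes in each of the 3 DMSO (blue) and 3 RSV (orange) libraries, with the group mean as a line and the SD as a bar. KCNK12, KCNE4 and KCNT2 lay lower in each RSV library than in any DMSO library, and KCNK1, KCNE5 and KCNAB2 lay higher.

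KCNK12 (ENSBTAG00000017500), a tandem pore domain subunit, had 184, 188 and 103 normalized reads in RSV A, B and C and 801, 830 and 738 in DMSO A, B and C. Behind these stood 200, 204 and 109 whole reads of RSV A, B and C against 772, 796 and 654 whole reads of DMSO A, B and C. The groups were far apart, since the lowest DMSO library lay 3.92 times above the highest RSV library. The RSV mean was 159 ± 47.8 (SD, n = 3) against 789.5 ± 46.9 (SD, n = 3) in DMSO, so that 20.1% of the control level was left. The log2FC was −2.36 with a standard error (SE) of 0.18, and 0.826% of the tested mRNAs had a larger absolute log2FC. Without RSV C, the lowest of the 6 libraries, the log2FC was −2.08.

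The relative spread of KCNK12 was uneven between the groups. Its coefficient of variation (CV) was 30.1% in RSV and 5.94% in DMSO, where counting error alone would give 7.65% and 3.67%. Ranked among the 500 tested mRNAs nearest to it in mean, this put KCNK12 at percentile 96.6 in RSV and at percentile 59.4 in DMSO. The RSV spread came from RSV C, whose log2 difference from the mean of RSV A and B was −0.84. Over all tested mRNAs the 10th and 90th percentiles of that difference were −0.52 and 0.44.

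KCNK1 (ENSBTAG00000004515), the other tandem pore domain member, codes for a weakly rectifying background channel and moved in the opposite direction. It had 131, 113 and 162 normalized reads in RSV A, B and C against 38.4, 38.6 and 46.3 in the DMSO libraries. The highest RSV value was that of RSV C, the library in which KCNK12 was lowest. The mean rose 3.29-fold, from 41.1 ± 4.49 (SD, n = 3) to 135 ± 25.1 (SD, n = 3), with a log2FC of 1.70 (SE 0.22). The DMSO values rest on 37, 37 and 41 reads, for which counting error alone gives a CV of 16.2%, above the CV of 10.9% seen.

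The ratio of KCNK12 to KCNK1 reads within a library does not depend on the size factors. It is not corrected for transcript length, so only its change can be read and not which transcript was more abundant. It was 20.9, 21.5 and 16.0 in DMSO A, B and C and 1.41, 1.67 and 0.637 in RSV A, B and C. The means were 19.4 ± 3.04 (SD, n = 3) and 1.24 ± 0.538 (SD, n = 3), and RSV C was the library in which KCNK1 had more reads than KCNK12 (171 against 109).

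The KCNE members showed the same division. KCNE4 (ENSBTAG00000006432) codes for an inhibitory subunit of KCNQ1 and of Kv1 channels, and had 2305, 1948 and 2329 normalized reads in RSV against 4213, 4223 and 4155 in DMSO. The DMSO libraries were close to each other (CV of 0.869%, percentile 6 among the 500 mRNAs nearest in mean), while the RSV libraries had a CV of 9.72%. The RSV mean of 2194 ± 213 (SD, n = 3) was 52.3% of the DMSO mean of 4197 ± 36.5 (SD, n = 3), with a log2FC of −0.94 (SE 0.07). In contrast to KCNK12, RSV C held the highest RSV value of KCNE4 and RSV B the lowest.

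KCNE5 (ENSBTAG00000012319), whose peptide likewise acts on KCNQ1 channels, had 3963, 4281 and 3124 normalized reads in RSV and 1563, 1538 and 1363 in DMSO. Its RSV mean was 3789 ± 597.5 (SD, n = 3) and its DMSO mean 1488 ± 109 (SD, n = 3), a 2.55-fold rise with a log2FC of 1.34 (SE 0.12). The CV was 15.8% in RSV and 7.33% in DMSO, where counting error alone gives 1.57% and 2.68%. RSV C was here the RSV library closest to DMSO, and without it the log2FC was 1.47. KCNE4 reads divided by KCNE5 reads gave 2.70, 2.75 and 3.05 in DMSO A, B and C and 0.582, 0.455 and 0.746 in RSV A, B and C. The ratio was thus lower in each RSV library than in any DMSO library, which follows from the opposite directions of KCNE4 and KCNE5. These reads again are not corrected for length, so a ratio above or below 1 does not tell which transcript was more abundant.

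KCNAB2 (ENSBTAG00000008125), a cytoplasmic subunit of Kv1 channels with the fold of an aldo-keto reductase, had 98.4, 81.2 and 123 normalized reads in RSV and 42.5, 57.3 and 46.3 in DMSO. The means of 101 ± 21.2 (SD, n = 3) and 48.7 ± 7.69 (SD, n = 3) differed 2.07-fold, with a log2FC of 1.03 (SE 0.23), the largest SE of the 6 members. The nearest libraries of the groups were 1.42-fold apart. In ARS-UCD2.0 a long non-coding RNA gene overlaps KCNAB2. The sources used here do not say whether the reads were counted by strand, so reads of the overlapping genes might not be separated.

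KCNT2 (ENSBTAG00000016729), a sodium-activated channel subunit, had the smallest difference of the 6 members and the last place among them in the order of the study's sheet. It had 220, 238 and 146 normalized reads in RSV A, B and C and 291, 338 and 322 in DMSO A, B and C. RSV C was again the lowest library, and RSV B and DMSO A lay 1.22-fold apart. The mean was 201 ± 48.7 (SD, n = 3) in RSV and 317 ± 23.9 (SD, n = 3) in DMSO, 63.6% of the control, with a log2FC of −0.68 (SE 0.17). Without RSV C the log2FC was −0.47. KCN genes beyond the end of that sheet have no symbol here, so no value just outside the selection can be given.

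The members divided by the RSV library that lay farthest from the DMSO mean. For KCNK12, KCNK1, KCNAB2 and KCNT2 it was RSV C, and for KCNE4 and KCNE5 it was RSV B. Among the 4803 called mRNAs, RSV C was the farthest library in 69.5%, RSV B in 15.9% and RSV A in 14.6%. The CV was larger in RSV than in DMSO for each of the 6 members, as it was for 68.4% of the tested mRNAs and 73.4% of those called. The part that RSV C has in the differences of KCNK12 and KCNT2 was measured by leaving it out. The log2FC then went from −2.36 to −2.08 for KCNK12 and from −0.68 to −0.47 for KCNT2. The direction could not change, since RSV A and B also lay below each DMSO library in both genes.

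**Figure D2:**
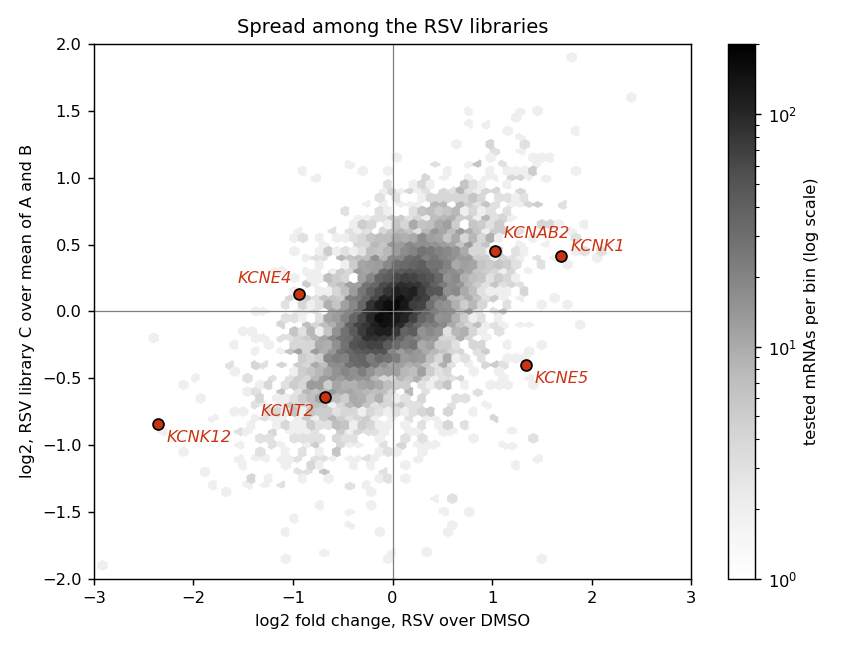
Log2FC of RSV over DMSO (horizontal axis) against the log2 difference between RSV library C and the mean of RSV libraries A and B (vertical axis), for all tested mRNAs in grey bins, 115 of which lie outside the axes, and the 6 KCN genes in red. KCNK12, KCNT2, KCNK1 and KCNAB2 lie where library C is farther from DMSO, and KCNE4 and KCNE5 lie where it is nearer. The axes share the RSV libraries.

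The genes most like KCNK12 across the libraries were looked for by the root mean square difference of log2(normalized reads + 1), taken relative to the DMSO mean, over the 6 libraries. Among 14414 mRNAs the median difference from KCNK12 was 1.71, and 16 mRNAs lay within 0.25. The 5 nearest with a symbol were IGF-I (0.101), ANPEP (0.122), GLT8D2 (0.139), XPNPEP2 (0.153) and COL6A6 (0.162), at ranks 1, 3, 4, 5 and 6. IGF-I is a growth factor of muscle, ANPEP and XPNPEP2 are aminopeptidases of the cell surface, GLT8D2 has a glycosyltransferase domain, and COL6A6 is a collagen VI chain.

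IGF-I had few reads, with 11.9, 12 and 5.69 normalized reads in RSV against 61.2, 52.1 and 46.3 in DMSO. ANPEP had 353, 321 and 199 normalized reads in RSV, whereas DMSO ranged from 1270 to 1378. In each of these 5 genes RSV C was the lowest library, and their log2FC values lay between −2.52 and −2.24. The size of the difference and the low value in RSV C thus make up the likeness, and it is a description over 6 libraries that share the group difference.

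**Figure D3:**
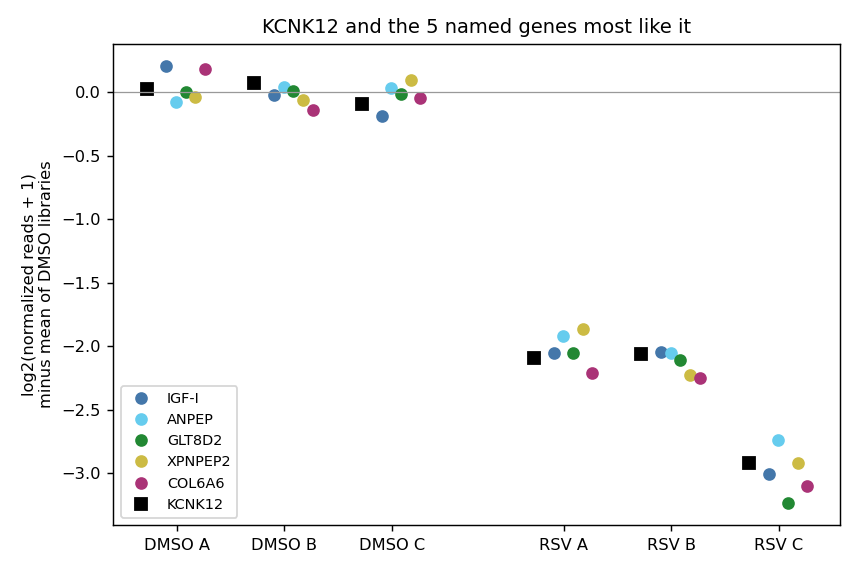
Log2(normalized reads + 1) minus the mean of the DMSO libraries (vertical axis) in each recovered library, for KCNK12 (black squares) and the 5 named genes nearest to it (coloured points). In RSV C the 6 genes lie below their values in RSV A and B.

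The KCTD genes share a potassium channel tetramerization domain with voltage-gated channels but form no channel, and many serve as adaptors of cullin 3 ubiquitin ligases. Of 21 KCTD genes, 7 (33.3%) had a symbol, and 5 were called lower and 2 higher in RSV. Their median log2FC was −0.74. A symbol was to be had for DE mRNAs only, and of the 1651 tested mRNAs with a symbol 873 (52.9%) were lower and 778 higher in RSV, with a median log2FC of −0.38, against 0.01 over all tested mRNAs. The count therefore describes the named genes and not the family, and the same background and limit hold for the lists below.

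KCTD12, an auxiliary subunit of GABA-B receptors, fell from 2336, 2553 and 2428 normalized reads in DMSO to 1123, 1309 and 764 in RSV (log2FC −1.23, SE 0.16). KCTD10, KCTD7, KCTD15 and KCTD9 had log2FC values of −0.87, −0.81, −0.74 and −0.46. KCTD11, an adaptor that restrains hedgehog signalling, rose from 548, 506.5 and 543 normalized reads to 1083, 1116 and 1339 (log2FC 1.14, SE 0.10). KCTD17 had a log2FC of 0.44 (SE 0.08). RSV C was the RSV library farthest from DMSO in each of the 7 genes.

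Potassium enters the cell through the sodium pump and cotransporters. Of 17 pump genes 3 had a symbol, 2 called higher and 1 lower in RSV. ATP1B1, the beta subunit of the sodium pump, had 839, 878 and 1055 normalized reads in RSV and 470, 438 and 453.5 in DMSO (log2FC 1.02, SE 0.10). The pump regulator FXYD5 had a log2FC of −0.43 (SE 0.11). Of 7 cotransporter genes only SLC12A7, which couples potassium to chloride export, had a symbol. It had 634, 644 and 880 normalized reads in RSV and 424, 430 and 412 in DMSO (log2FC 0.75, SE 0.14).

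Of 34 other channel genes of the muscle membrane 8 had a symbol, with 5 called higher and 3 lower in RSV and a median log2FC of 0.44. CACNA1S, the voltage sensor of excitation-contraction coupling, had a log2FC of 0.77 (SE 0.10). CACNA1C, the pore of the cardiac and smooth muscle type calcium channel, had 408, 297 and 287 normalized reads in RSV against 893, 951.5 and 983 in DMSO (log2FC −1.52, SE 0.12). Of 33 genes of calcium release and uptake 8 had a symbol, and of the 7 tested 5 were called higher and 2 lower. The calcium pump gene ATP2A3 and the sodium-calcium exchanger gene SLC8A1 were at the ends of this list, with log2FC values of 1.19 (SE 0.21) and −0.81 (SE 0.10).

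**Figure D4:**
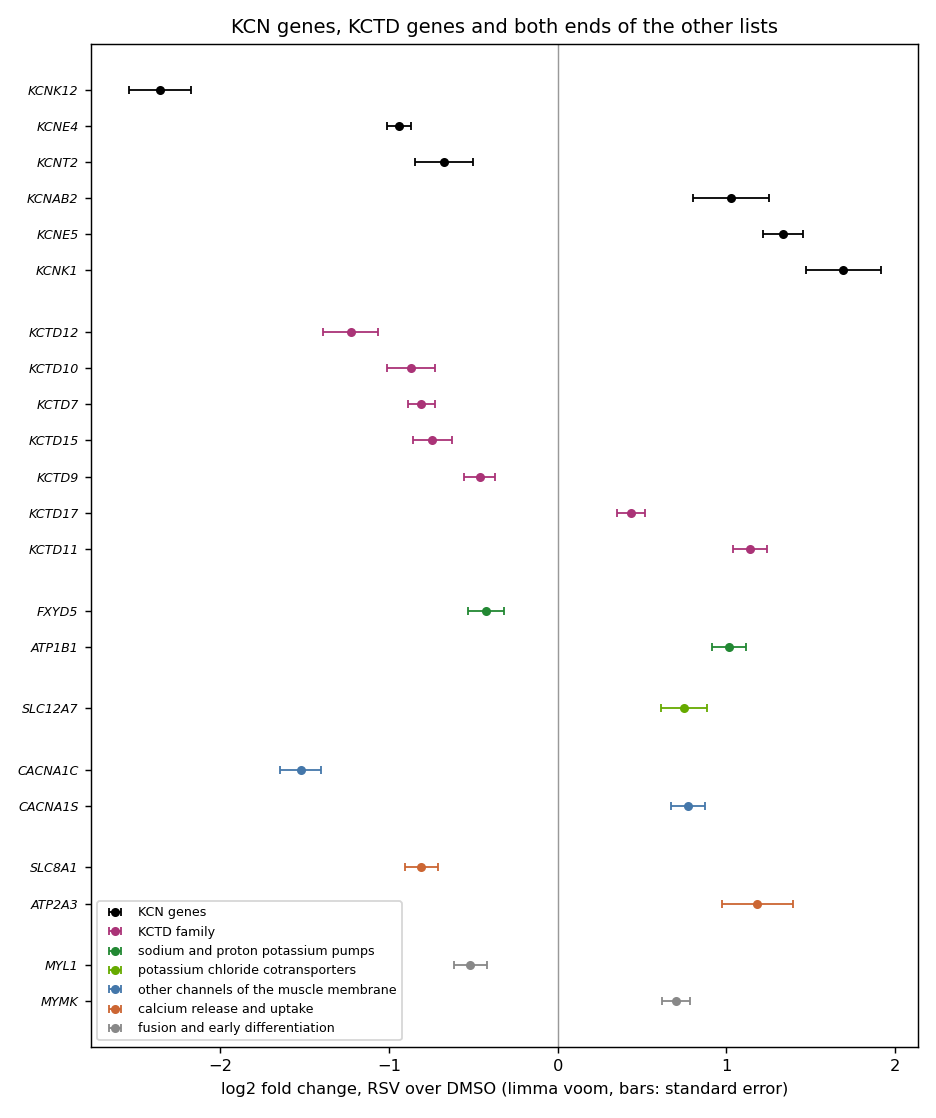
Log2FC of RSV over DMSO with its SE (horizontal axis) for the 6 KCN genes (black), the 7 named KCTD genes and the genes at both ends of the pump, cotransporter, channel, calcium and differentiation lists (colours). Symbols exist for DE mRNAs only, so no gene lies near 0, and 5 of the 7 KCTD genes lie to the left.

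The myoblast label could not be checked from the symbols, which exist for DE mRNAs only. The values below compare RSV with DMSO and do not tell what the cells are. Of 8 myoblast markers, MYH3, the embryonic myosin heavy chain, had a symbol. No reads were recovered for it up to 5500 normalized reads, the highest mean searched, and the log2 ratio of its deposited means was 0.72. Of 28 genes of fusion and early differentiation 8 had a symbol, and of the 7 tested 5 were called higher and 2 lower. MYMK, the fusogen myomaker, had 1998, 1733 and 1630 normalized reads in RSV and 1114, 1084 and 1084 in DMSO (log2FC 0.70, SE 0.08), and MYL1 a log2FC of −0.52 (SE 0.10).

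Markers of other cells moved with the members. Of 9 fibroblast markers 6 had a symbol, and the 6 were lower in RSV. PDPN had a log2FC of −0.51 (SE 0.09), and the log2 ratio of the deposited means was −0.42, −0.53, −0.60, −0.82 and −0.43 for PDGFRA, COL3A1, DCN, LUM and THY1, again without reads recovered up to 5500. Of 6 smooth muscle and pericyte markers 3 had a symbol and were lower, with a log2FC of −1.46 (SE 0.17) for CSPG4 and log2 ratios of −1.30 and −0.85 for ACTA2 and TAGLN. CSPG4 was at 670, 735 and 417 normalized reads in RSV A, B and C, whereas DMSO ranged from 1595 to 1655, and RSV C was its lowest library. PDPN went the other way within the RSV group, with 786, 694 and 893 normalized reads in RSV A, B and C against 1092 to 1151 in DMSO, so that RSV C was its highest RSV library.

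Of 5 immune markers CD14 had a symbol, with 31.3, 27.7 and 46.5 normalized reads in RSV against 8.34 to 10.4 in DMSO. No endothelial or adipocyte marker had a symbol. In such bulk samples fewer cells of a type and less RNA per cell cannot be told apart, and the part of cell composition in the KCN differences was not tested.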

How the data were processed

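mRNA reads of 3 RSV and 3 DMSO samples, grouped by their labels, were analysed; the miRNA part was not used. Per the file headers, the authors deposited a read count per group, log2 fold changes and p-values, of which the last 2 kinds are not reported here. The values themselves show the read counts to be group means of counts divided by size factors, and the paper's methods name DESeq for the group comparison. The aligner and annotation of the mRNA reads are not given in the sources used here. In most of the deposited values from 1 upwards the decimal point was missing. Its position was restored so that the digits of both means gave the digits of the deposited log2 fold change, and the means were then written as whole reads over 6 size factors. The 3 most frequent values under 1 in a column gave the size factors of that group. Unique whole reads were found for 19845 of 20459 mRNAs (97.0%), up to a mean of 5500 and with under 0.01 combinations to be had by chance. In simulated means of 990 mRNAs, unique reads were found for 990 and were right for 990. These means were drawn at the levels of mRNAs whose reads had been recovered, with the recovered size factors taken as true. The simulation therefore does not cover the 614 mRNAs without recovered reads.

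Recovered reads were fitted with limma voom (limma 3.58.1, R 4.3.3) and Benjamini-Hochberg adjustment, with library sizes set by the size factors and a minimum mean of 10 normalized reads. In simulated reads of 14415 mRNAs in which 200 differed by 1 on the log2 scale in either direction, 178 (89.0%) were recovered and 8 others called. The simulated dispersion was the same for all mRNAs and both groups, and no library stood apart as RSV C did. In the data the CV was larger in RSV for 68.4% of the tested mRNAs, so these shares need not hold there. Python 3.11.15, numpy 2.4.6, pandas 2.3.3, numba 0.67.0 and matplotlib 3.10.9 served the other steps. Identifiers were paired with symbols through the study's supplementary sheets, whose values are not printed, and RefSeq matched 0 of them. The members and lists were chosen with earlier results of these data known, and the read ratios, the farthest library and the overlapping genes were chosen after the members' values were seen. Named were the members, the 7 KCTD genes with a symbol, the genes at both ends of each other list, and the 5 genes nearest to KCNK12. The limma voom p-values set the group difference against the spread between cultures of a group, with the variance moderated across mRNAs. With 3 against 3 an exact two-sided permutation test cannot go below 0.10. Sequences of the members were not analysed here, and results of some genes of the lists are not reported here.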

Additional observations from a re-analysis of the deposited data

How the results depend on the processing

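For the 6 KCN genes, TMM scaling, limma-trend with pseudocounts of 1 and 0.1 and the log2 ratio of the deposited means were tried. Each library was also left out in turn. These gave 60 further log2FC values, and the 60 kept their sign and moved by less than the SD between libraries. With a library left out, the sign could not change, because the RSV and DMSO libraries of each member did not overlap. Leaving out 1 of 3 libraries also shifts a group mean by less than about that SD. Both outcomes were thus largely fixed in advance for the libraries left out, and only the size of the change is informative there. With 1 library left out the log2FC lay between −2.51 and −2.08 for KCNK12, −0.99 and −0.86 for KCNE4, 1.24 and 1.47 for KCNE5, 1.56 and 1.82 for KCNK1, 0.878 and 1.175 for KCNAB2 and −0.81 and −0.47 for KCNT2. The number of called mRNAs lay between 2343 and 5997 with 1 library left out, the highest without RSV C, and within 1.5 times the 4803 under the other scaling, weighting, pseudocounts and minimum means. KCNK1 and KCNAB2 rest on 37 to 55 reads in each DMSO library, so counting error limits their control values. No paired analysis was possible because the deposited columns are group means without replicate numbers, and the recovered libraries were not assigned to numbered samples by matching values.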
